A study of Mus musculus with 11 samples.

Results

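The fasting and gluconeogenesis genes Pck1, G6pc, Fbp1, Ppargc1a, Tat, Pdk4, Angptl4, Fgf21 and Irs2 were followed through an acetaminophen injury of the mouse liver and across the zones of the lobule. The genes were chosen by name as well-known members of the hepatic fasting response and were found by symbol, all 9 of them, among the 31053 genes listed in the files. RNA was read in place with Visium, an assay in which spots on a slide capture polyadenylated RNA from the tissue above them and tag each molecule with a unique molecular identifier (UMI). The study followed liver regeneration after acetaminophen (APAP), a painkiller whose overdose kills the hepatocytes around the central vein. The 11 sections comprised 3 of uninjured liver (0 h, numbered 2, 3 and 4), 2 each from 24 h and 36 h after APAP (lettered A and B), and 4 from 48 h (lettered A to D). The protocol used C57BL/6JCrl mice of 8 to 12 weeks, male unless stated otherwise, which fasted for 12 h before APAP and received it intraperitoneally, at 300 mg per kg in males. Strain, sex and age are not in the sample labels. The protocol does not say whether the uninjured mice were fasted as well, nor at what hour of the 12 h light and 12 h dark cycle any liver was taken. The methods give 1 mouse liver per time point for the spatial data, whereas the labels list several sections per time point. Whether these sections came from separate animals was not settled. The p-values may therefore cover only the spread between sections of an animal, and animal, feeding state, hour of day and time after APAP cannot be told apart.

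In fasting, glucagon and glucocorticoids raise the transcription of genes that make glucose from lactate, glycerol and amino acids in the liver, and insulin lowers it after a meal. PEPCK, encoded by Pck1, and the bisphosphatase and glucose phosphatase encoded by Fbp1 and G6pc catalyse the committed steps of gluconeogenesis, and Tat feeds the pathway with carbon from tyrosine. Ppargc1a encodes a coactivator that is induced by fasting, Pdk4 a kinase that holds back the oxidation of pyruvate, Angptl4 and Fgf21 secreted proteins that are induced through the fatty acid sensor PPARalpha, and Irs2 an adaptor of the insulin receptor that FOXO1 induces in fasting. Gluconeogenesis is textbook periportal work, whereas drug oxidation and glutamine synthesis are pericentral.

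The genes lie on 8 mouse chromosomes. In the GRCm38 build (GENCODE vM21), Pck1 spans chr2:173153048-173159273 on the plus strand, G6pc chr11:101367561-101377903 on the plus strand, Fbp1 chr13:62864753-62888282 on the minus strand and Ppargc1a chr5:51454250-51567726 on the minus strand. Tat lies at chr8:109990437-109999803 on the plus strand, Pdk4 at chr6:5483351-5496309 and Angptl4 at chr17:33773750-33781830, both on the minus strand. Fgf21 (chr7:45613886-45615490) and Irs2 (chr8:10984681-11008458) are also minus-strand genes. The 250 bases before the RefSeq start were searched on both strands in 8 of the 9 genes. The strings were CGTCA (the core of the cAMP response element), GTAAACA (forkhead box), AGAACA (an arm of the glucocorticoid response element) and AGGTCA (nuclear receptor half-site). CGTCA stood in 3 of the 8 windows and in 17.8% of all 32851 mouse windows of that length. AGGTCA stood in 1 of the 8 and in 14.0% of all windows, and GTAAACA and AGAACA, held by 3.17% and 16.1% of all windows, stood in none of the 8. The 4 windows that held a match are shown because hormone control of these genes through such elements is the textbook case; each runs 5′ to 3′ along its gene (RefSeq, GRCm38.p6), with the matched letters in capitals.

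Pck1: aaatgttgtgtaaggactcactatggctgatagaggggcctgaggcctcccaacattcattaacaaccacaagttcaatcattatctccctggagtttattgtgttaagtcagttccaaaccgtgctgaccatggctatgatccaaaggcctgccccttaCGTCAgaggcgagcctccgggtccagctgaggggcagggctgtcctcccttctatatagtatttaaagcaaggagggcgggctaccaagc
G6pc: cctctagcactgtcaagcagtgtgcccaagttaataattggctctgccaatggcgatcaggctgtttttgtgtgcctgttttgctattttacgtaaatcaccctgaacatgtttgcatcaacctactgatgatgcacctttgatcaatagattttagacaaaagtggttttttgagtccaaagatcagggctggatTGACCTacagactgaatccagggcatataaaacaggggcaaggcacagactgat
Ppargc1a: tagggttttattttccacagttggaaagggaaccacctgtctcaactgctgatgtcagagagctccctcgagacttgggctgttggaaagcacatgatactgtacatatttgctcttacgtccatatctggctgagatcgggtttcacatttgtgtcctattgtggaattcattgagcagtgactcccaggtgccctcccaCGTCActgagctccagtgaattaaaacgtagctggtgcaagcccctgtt
Fgf21: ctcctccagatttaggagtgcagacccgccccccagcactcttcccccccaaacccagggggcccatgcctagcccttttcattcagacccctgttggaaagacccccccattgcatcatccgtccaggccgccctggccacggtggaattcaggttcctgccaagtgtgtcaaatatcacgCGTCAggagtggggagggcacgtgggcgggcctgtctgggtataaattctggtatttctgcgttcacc

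The Pck1 window covers chr2:173152823-173153072 and its match begins 90 bases before the start. That of G6pc covers chr11:101367466-101367715 with a match on the opposite strand at 54 bases, that of Ppargc1a chr5:51567726-51567975 with a match at 49 bases, and that of Fgf21 chr7:45615491-45615740 with a match at 68 bases. RefSeq and GENCODE starts differ, and the windows of G6pc, Pck1 and Ppargc1a reach into the GENCODE spans given above. The G6pc match lies inside its GENCODE span. A match is a string of letters in this window and not a measured site.

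The 25136 spots that passed the filters held 31292663 to 67045372 UMIs per section, with a median of 15169 to 29950 UMIs per spot. The mitochondrial share of the UMIs was 4.10 to 5.995% at 0 h, 1.94 to 2.37% at 24 h and 2.35 to 3.06% at 48 h, and at 36 h it was 1.80% in section A and 4.53% in section B, the section with the higher Tat, Pck1 and Ppargc1a. Its part in the results was not tested. Levels are given per section as counts per 1000000 UMIs after TMM scaling (CPM). Hepatocyte transcripts were present in every section: the summed level of 6 hepatocyte markers was 109755 to 114754 CPM at 0 h and 72897 to 99076 CPM over the 8 injured sections. The sum hides opposite changes. At 24 h Hp rose by 2.70 on the log2 scale, whereas Cyp2e1, Ttr and Apoa1 were at -2.82, -1.15 and -0.56. Summed neutrophil markers were 1.98 to 7.86 CPM at 0 h and 20.9 to 136 CPM after APAP, and summed mesenchymal markers reached 674 to 1469 CPM at 48 h against 249.7 to 286 CPM at 0 h. Summed macrophage markers were 430.4 to 456 CPM at 0 h and 744 to 1362 CPM at 48 h, and cholangiocyte markers 5.26 to 6.98 CPM at 0 h and 13.7 to 24.4 CPM at 24 h. Of the 4 cholangiocyte markers only 1 was called higher at 24 h and 3 were not called, with a median log2 fold change of 0.017. The part of these cell types in the results was not tested. Fat and muscle tissue, which also use several of the 9 genes, were close to absent, with summed adipocyte markers of at most 7.05 CPM and muscle markers of at most 0.333 CPM. In such sums over all cells, fewer hepatocytes and less RNA per hepatocyte cannot be told apart. Off the tissue, spots held 10.7 to 24.9% of the UMIs of each section, and the 9 genes were found there too, Pck1 for example at 608 to 833 CPM in the 0 h sections, so the values of neighbouring spots are not fully separate.

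After APAP several of the 9 genes fell below the uninjured level and none was called above it. At 24 h, G6pc, Fbp1, Tat, Pdk4 and Angptl4 fell (5 of 9; 18.6% of all 14821 genes tested fell, 23.1% rose and 41.7% changed), and Pck1, Ppargc1a, Fgf21 and Irs2 did not pass the test. At 36 h, G6pc, Fbp1 and Irs2 were below 0 h (3 of 9; 12.4% of all genes fell, 16.8% rose and 29.2% changed). At 48 h, G6pc, Fbp1, Tat and Angptl4 were below 0 h (4 of 9; 20.9% of all genes fell, 23.3% rose and 44.2% changed). Calls are at a Benjamini-Hochberg adjusted p under 0.05 in edgeR's quasi-likelihood test over all genes. The median log2 fold change of the 9 genes was -1.82, -0.74 and -1.11 at 24, 36 and 48 h, against 0.05, 0.05 and 0.01 over all genes. The 3 contrasts share the same 0 h sections. Scaling to 5 hepatocyte markers (Alb, Ttr, Hp, Apoa1 and Hnf4a) instead of TMM moved the all-gene medians to 0.36, 0.35 and 0.47. Scaling to total counts moved them to 0.37, 0.49 and 0.54. Hp rose and Ttr and Apoa1 fell at 24 h, so the hepatocyte scaling is not a neutral measure of hepatocyte content. With the hepatocyte scaling 4, 1 and 2 of the 9 genes were called lower, Irs2 at 36 h and Fbp1 and G6pc at 48 h among them.

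**Figure D1:**
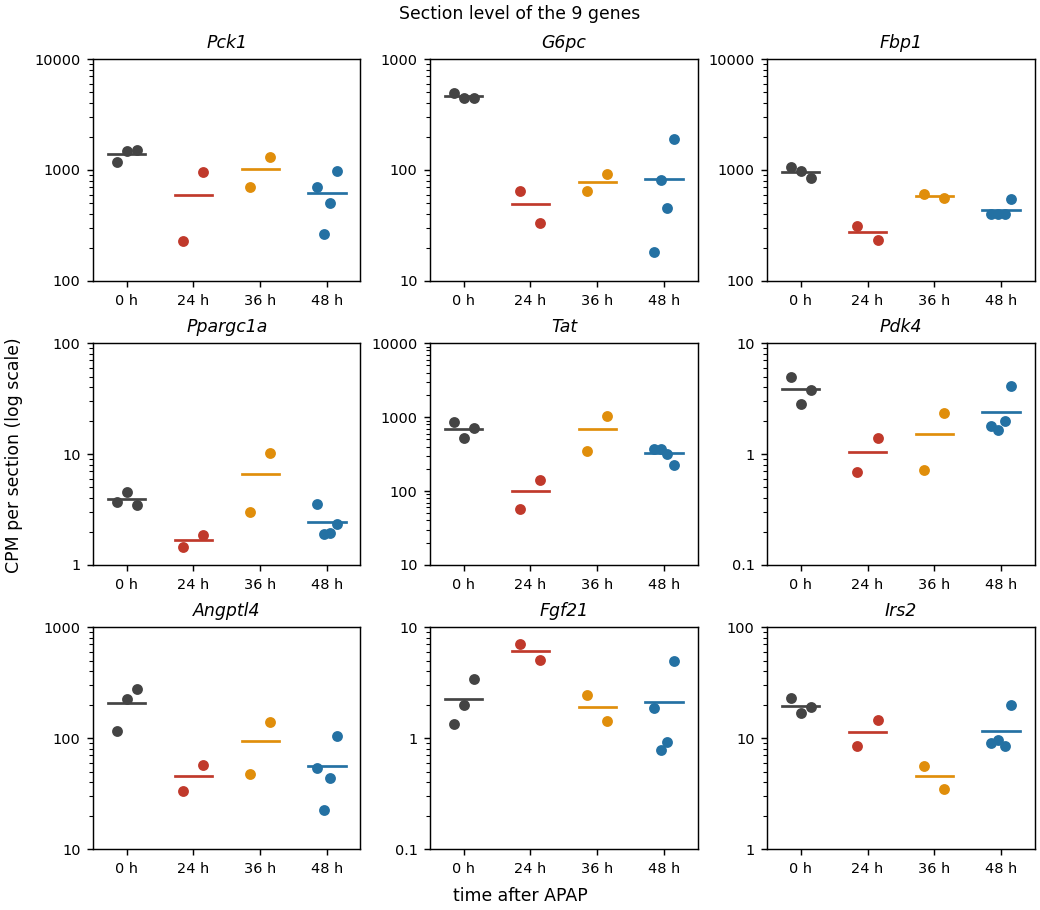
Level of each gene (CPM, log axis) in the 3 uninjured and 8 injured sections; points are sections and bars are means. G6pc and Fbp1 lay below every 0 h section at all 3 times, whereas at 36 h Tat had a section on either side of the 0 h range and Pck1 had 1 section within it and 1 below.

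G6pc, the last enzyme of glucose release, changed most among the 9 genes at 24 h. Its level was 494, 450 and 444 CPM in the 0 h sections, 65.3 and 33.1 CPM at 24 h, 64.4 and 91.7 CPM at 36 h, and 18.1, 80.4, 45.4 and 190 CPM at 48 h. All injured sections were far below the uninjured ones, and the 48 h sections were the most scattered. The mean fell from 463 ± 27.4 CPM (SD, n = 3) to 49.2 ± 22.8 CPM (n = 2) at 24 h, a log2 fold change of -3.23 ± 0.85 (SE; edgeR adjusted p = 0.0127). It stayed lower at 36 h (-2.57 ± 0.82, edgeR adjusted p = 0.041) and 48 h (-2.47 ± 0.63, edgeR adjusted p = 0.0103). The call at 24 h was lost without 24 h section B (-2.83, adjusted p = 0.102). That at 36 h was lost when any section other than 48 h A, C or D was left out (adjusted p = 0.0510 to 0.185), and with scaling to hepatocyte markers (-2.29, adjusted p = 0.0883).

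Fbp1, which removes a phosphate from fructose bisphosphate, had the smallest standard errors of the 9 genes against 0 h. It stood at 1067, 980 and 851 CPM at 0 h, 312 and 235 CPM at 24 h, 602 and 554 CPM at 36 h, and 399, 398, 397 and 552 CPM at 48 h. The 24 h sections were the lowest, and the sections of 24, 36 and 48 h did not overlap those of 0 h. Against 0 h the log2 fold change was -1.82 ± 0.19 (edgeR adjusted p = 8.98e-05) at 24 h, -0.74 ± 0.19 (adjusted p = 0.0144) at 36 h and -1.15 ± 0.15 (adjusted p = 0.000227) at 48 h. Fbp1 rose again from 24 to 36 h by 1.08 ± 0.20 on the log2 scale (edgeR adjusted p = 0.00972) and was 0.67 ± 0.18 higher at 48 than at 24 h (adjusted p = 0.0146). The 36 h call against 0 h was lost without 36 h section B (-0.68, adjusted p = 0.0733) and when scaled to hepatocyte markers (-0.43, adjusted p = 0.192) or to total counts (-0.30, adjusted p = 0.200). Without 24 h section B neither rise was called (0.89, adjusted p = 0.0565, and 0.48, adjusted p = 0.139).

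Pck1, the gene of the cytosolic PEPCK, did not pass the test at any time. The level was 1186, 1476 and 1525 CPM at 0 h, 228 and 958 CPM at 24 h, 701 and 1319 CPM at 36 h, and 706, 263, 507 and 986 CPM at 48 h. All sections of 24 and 48 h were below all sections of 0 h, and the 2 sections of 24 h stood far apart. Against 0 h the log2 fold change was -1.23 ± 0.64 at 24 h (edgeR adjusted p = 0.148), -0.47 ± 0.62 at 36 h (adjusted p = 0.601) and -1.18 ± 0.51 at 48 h (adjusted p = 0.0858). Without 24 h section B the 24 h contrast passed (-2.62, adjusted p = 0.0255). The 48 h contrast passed without 48 h section D (-1.50, adjusted p = 0.0444) and without either 24 h section (adjusted p = 0.0367 and 0.0377).

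Tat, the tyrosine aminotransferase induced by glucocorticoids, was low at 24 h and back in the uninjured range by mean at 36 h. Sections held 861, 515 and 708 CPM at 0 h, 56.7 and 142 CPM at 24 h, 348 and 1020 CPM at 36 h, and 368, 376, 318 and 228 CPM at 48 h. The 24 h sections were below all others, and the 36 h sections lay on either side of the 0 h range. At 24 h Tat fell by 2.81 on the log2 scale (SE 0.53, edgeR adjusted p = 0.00223), differed from 0 h by -0.02 ± 0.47 at 36 h (adjusted p = 0.978) and was 1.11 lower at 48 h (log2 fold change -1.11 ± 0.39, adjusted p = 0.0416). The rise from 24 to 36 h was 2.79 ± 0.55 (edgeR adjusted p = 0.0126) and that from 24 to 48 h 1.70 ± 0.48 (adjusted p = 0.0223). The call at 48 h against 0 h was lost with hepatocyte-marker scaling (-0.65, adjusted p = 0.116), with total-count scaling (-0.58, adjusted p = 0.202) and without 0 h section 2 or 4 or any one of the 48 h sections (adjusted p = 0.0602 to 0.131). Without 24 h section A neither rise was called (adjusted p = 0.0771 and 0.163), and without 36 h section B that to 36 h was not (1.84, adjusted p = 0.0529).

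**Figure D2:**
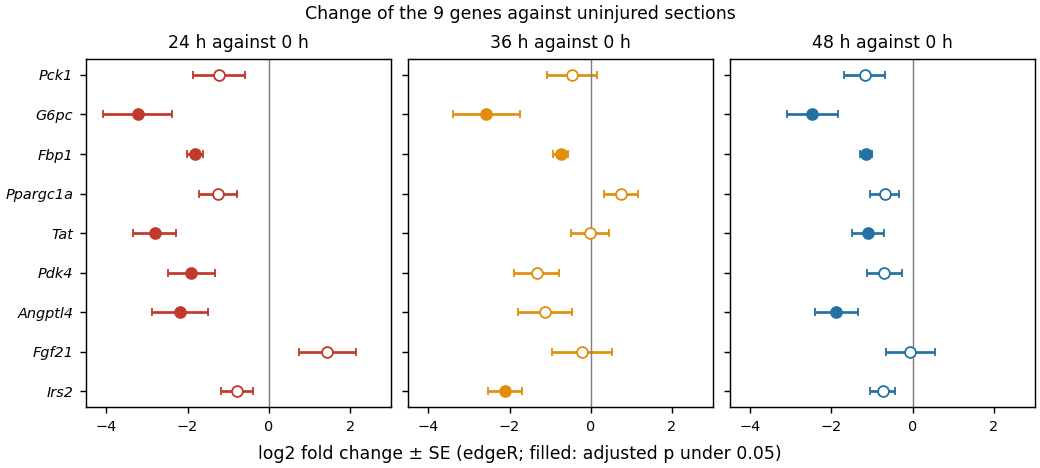
Log2 fold change of the 9 genes at 24, 36 and 48 h against 0 h with its standard error (edgeR, 11 sections in 1 fit); filled points have an adjusted p under 0.05. All called values were lower than at 0 h, and the values above 0, of Fgf21 at 24 h and Ppargc1a at 36 h, were not called; with hepatocyte-marker or total-count scaling the uncalled values of Fgf21 at 36 and 48 h and of Tat at 36 h turned positive.

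Ppargc1a was a low-count gene, with 59 to 356 UMIs per section. Its level was 3.72, 4.56 and 3.50 CPM at 0 h, 1.46 and 1.88 CPM at 24 h, 2.98 and 10.2 CPM at 36 h, and 3.55, 1.91, 1.94 and 2.36 CPM at 48 h. Both 24 h sections were below every 0 h section, and 36 h section B was above every other section of the series. The rise from 24 to 36 h passed the test (log2 fold change 1.98 ± 0.50, edgeR adjusted p = 0.0275), and that call was lost without 36 h section B (0.88, adjusted p = 0.173) and without 24 h section A or B (adjusted p = 0.154 and 0.0872). The difference between 24 and 0 h was -1.24 ± 0.47 (edgeR adjusted p = 0.0549), and at 36 and 48 h it was 0.74 ± 0.43 (adjusted p = 0.212) and -0.69 ± 0.36 (adjusted p = 0.147). The 36 h value against 0 h was called with total-count scaling (1.16, adjusted p = 0.0380) and without 36 h section A (1.36, adjusted p = 0.00949), whereas without 36 h section B its direction turned (-0.40, adjusted p = 0.478).

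The 36 h sections also differed in their clock genes, which follow the hour of day. Dbp, an output gene of the clock, was at 46.1 ± 24.4 CPM (SD, n = 2) at 36 h and at 5.31 ± 2.36 CPM (n = 3) at 0 h. Arntl, which encodes the clock activator BMAL1, was at 3.45 ± 0.166 CPM at 36 h against 16.5 ± 1.03 CPM at 0 h. Of 13 clock genes, 6 were higher and 3 lower at 36 h against 0 h, whereas 1 was higher and 2 lower at 48 h. Of all genes, 29.2% changed at 36 h and 44.2% at 48 h. The part of the clock genes in the 36 h levels of Tat, Ppargc1a, Fbp1 and Irs2 was not tested.

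Pdk4, the kinase of the pyruvate dehydrogenase complex, had 25 to 284 UMIs per section. It stood at 4.97, 2.83 and 3.78 CPM at 0 h, 0.688 and 1.40 CPM at 24 h, 0.724 and 2.34 CPM at 36 h, and 1.78, 1.65, 1.98 and 4.10 CPM at 48 h. The 24 and 36 h sections were below all 0 h sections, and 48 h section D was above the other 48 h sections. Pdk4 fell at 24 h by 1.91 on the log2 scale (SE 0.58, edgeR adjusted p = 0.0226), and the values at 36 and 48 h were -1.33 ± 0.56 (adjusted p = 0.0947) and -0.69 ± 0.43 (adjusted p = 0.211). The 24 h call was lost without 0 h section 2 (-1.72, adjusted p = 0.0614) or 24 h section A (-1.46, adjusted p = 0.166). The 36 h value was called without 36 h section B (-2.41, adjusted p = 0.0416) and by DESeq2 (adjusted p = 0.0358), and the 48 h value without 48 h section D (-1.09, adjusted p = 0.0474).

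Of the secreted proteins, Angptl4, an inhibitor of lipoprotein lipase, was at 116, 226 and 275 CPM at 0 h, 33.7 and 56.8 CPM at 24 h, 47.3 and 141 CPM at 36 h, and 53.4, 22.7, 43.4 and 104 CPM at 48 h. The 24 and 48 h sections were all below the lowest 0 h section. The log2 fold change was -2.19 ± 0.69 at 24 h (edgeR adjusted p = 0.0297), -1.13 ± 0.66 at 36 h (adjusted p = 0.222) and -1.88 ± 0.53 at 48 h (adjusted p = 0.0178). Neither call held with hepatocyte-marker scaling (adjusted p = 0.0610 at 24 h and 0.0632 at 48 h). The 24 h call was also lost without 0 h section 3 or 4 or either 24 h section (adjusted p = 0.0550 to 0.173), and the 48 h call without 0 h section 4 (adjusted p = 0.0595).

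Fgf21, a hormone that the liver releases in fasting and under stress, was the member with its highest level at 24 h. It was found at 1.34, 1.99 and 3.45 CPM at 0 h, 7.01 and 5.10 CPM at 24 h, 2.43 and 1.43 CPM at 36 h, and 1.88, 0.785, 0.918 and 4.97 CPM at 48 h, from 39 to 344 UMIs per section. Both 24 h sections were above every other section. The log2 fold change at 24 h was 1.44 ± 0.70 and did not pass the test (edgeR adjusted p = 0.123). A fit to the 0 and 24 h sections alone called it (1.42, adjusted p = 0.0211), as did the fit without 48 h section D (1.44, adjusted p = 0.0273).

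Irs2 took another course, with its lowest level at 36 h. It was at 22.9, 16.8 and 19.0 CPM at 0 h, 8.50 and 14.5 CPM at 24 h, 5.59 and 3.45 CPM at 36 h, and 8.99, 9.60, 8.46 and 19.8 CPM at 48 h. The 36 h sections were below every other section, and 48 h section D lay within the 0 h range. The log2 fold change was -2.11 ± 0.42 at 36 h (edgeR adjusted p = 0.00595), -0.78 ± 0.39 at 24 h (adjusted p = 0.137) and -0.74 ± 0.32 at 48 h (adjusted p = 0.0805). Without 36 h section B the 36 h contrast was not called (-1.81, adjusted p = 0.0611).

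Among the injured times, Fbp1, Ppargc1a and Tat rose from 24 to 36 h (3 of 9; 7.04% of all genes rose, 8.58% fell and 15.6% changed), and Fbp1 and Tat were higher at 48 than at 24 h (2 of 9; 16.2% of all genes were higher, 17.8% lower and 34.1% changed). Between 36 and 48 h none of the 9 passed edgeR's test (3.05% of all genes did, 1.62% higher and 1.43% lower), 4 had an unadjusted p under 0.05, and DESeq2 called 2, Irs2 and Ppargc1a. In the 24 h against 0 h contrast the section ranges of all 9 genes did not overlap, as for 69% of all genes. The count was 4 of 9 at 36 h (55.9% of all genes) and 5 of 9 at 48 h (54.4%). It was 5 of 9 between 24 and 36 h (54.1%), 2 of 9 between 36 and 48 h (25.7%) and 5 of 9 between 24 and 48 h (54.8%).

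Other genes of glucose production changed in both directions. Of 22 tested genes of gluconeogenic steps and transporters, 5 fell and 3 rose at 24 h. At 36 h 4 fell and 2 rose, and at 48 h 14 fell and 1 rose. Of all genes, 41.7%, 29.2% and 44.2% changed at 24, 36 and 48 h, so the shares of the list at 24 and 36 h were not above those of all genes. Pck2, the mitochondrial counterpart of Pck1, rose against 0 h at all 3 times (log2 fold change 0.59, 1.38 and 1.23; edgeR adjusted p = 0.0248, 0.000800 and 0.000185). Slc2a2, the glucose transporter of the hepatocyte surface, fell by 1.28 at 24 h and by 1.23 at 48 h on the log2 scale, and Aqp9, the glycerol channel, fell by 1.08 at 24 h and by 0.84 at 36 h. The list's median log2 fold change was -0.19, -0.11 and -0.37 at 24, 36 and 48 h, closer to 0 than the shift of the all-gene median under the other scalings, so its sign depends on the scaling.

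The fatty acid oxidation and ketogenesis genes under PPARalpha, which accompany gluconeogenesis in fasting, fell broadly. Of 20, 16 fell at 24 h, 11 at 36 h and 19 at 48 h, and none rose (18.6%, 12.4% and 20.9% of all genes fell). Their median log2 fold change was -0.86, -0.59 and -0.92, farther from 0 than that shift. At 24 h Ehhadh, a peroxisomal enzyme of fatty acid oxidation, fell by 3.51 on the log2 scale, and Acot1, an acyl-CoA thioesterase, fell by 2.42. Genes of the fed state were called lower mostly at 48 h, the time with the most sections, but their summed level was already low at 24 h. It was 10909 to 13605 CPM at 0 h, 1124 to 4110 CPM at 24 h, 864 to 8021 CPM at 36 h and 1406 to 2016 CPM at 48 h. Between 24 and 48 h only 1 of 17 was called lower. Of 17 genes of glycolysis and lipogenesis, 2 fell and 1 rose at 24 h, 1 fell and 1 rose at 36 h, and 11 fell at 48 h, with Scd1, the stearoyl-CoA desaturase, at a log2 fold change of -3.76. At 24 h Me1, the malic enzyme, was at -2.06. The list's median was -0.86, -0.32 and -1.46 at 24, 36 and 48 h.

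Targets of FOXO1 and of the glucocorticoid receptor divided. Of 13, 4 rose and 2 fell at 24 h, 5 rose and none fell at 36 h, and 2 rose and 4 fell at 48 h, with medians of 0.26, 1.15 and 0.37. The whole set of genes was divided too, with 23.1% higher and 18.6% lower at 24 h. Its shares were 16.8% higher and 12.4% lower at 36 h, then 23.3% higher and 20.9% lower at 48 h. A split list at 24 or 48 h is therefore not particular to these targets. Fkbp5, a glucocorticoid-induced chaperone partner, rose by 2.67, 3.58 and 1.78 on the log2 scale at 24, 36 and 48 h, and the metallothionein genes Mt1 and Mt2, which also respond to zinc and to cytokines, rose by 5.69 and 6.50 at 24 h. Tsc22d3, another glucocorticoid-induced gene, was lower at 24 h (-1.95) and 48 h (-1.04), and Lpin1, which is induced by fasting, fell by 2.17 at 48 h. Of 23 hormone receptors, insulin signalling genes and fasting regulators, 8 fell and 2 rose at 24 h, 4 fell and 1 rose at 36 h, and 9 fell and 1 rose at 48 h, with medians of -0.36, -0.13 and -0.38. The shares called at 24 and 48 h were close to those of all genes (41.7% and 44.2%), and the medians at 36 and 48 h were closer to 0 than the shift under the other scalings. Nr3c1, the glucocorticoid receptor, was at -0.95 at 24 h and -0.56 at 36 h.

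To ask where in the lobule the 9 genes lay, the 25% of each section's spots with the highest score over 12 periportal genes (periportal spots) were compared with the 25% with the lowest score (portal-poor spots). None of the 9 genes is in the score, but the score was read in the same spots, and Alb, a general hepatocyte gene, was itself higher in the periportal spots, by 0.64 on the log2 scale at 0 h and by 1.14 at 48 h. At 0 h the contrast carried the textbook zonation, and Cyp2e1 and Glul, pericentral genes outside the score, were at -1.85 and -2.03, respectively. After APAP both genes separated the zones less. In the order 24, 36 and 48 h, Cyp2e1 stood at -1.27, -0.70 and -0.67, and Glul at -0.32, 0.005 and -0.88. Neither gene passed edgeR's test in the 36 h sections, and Glul also failed it in those of 24 h. The portal-poor spots of 36 h were therefore not shown to be pericentral by these genes.

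In uninjured liver the zonation of the 9 genes was shallow. Pck1, Ppargc1a, Tat and Fbp1 were higher in the periportal spots and Pdk4 was lower (4 and 1 of 9; of all 13693 genes tested 10.7% differed, 5.38% higher and 5.35% lower). Pck1 was at 1468, 1912 and 1839 CPM in the periportal and 980, 1112 and 1262 CPM in the portal-poor spots, and the zones did not overlap (log2 fold change 0.64 ± 0.13, edgeR adjusted p = 0.0114). Fbp1 was 0.47 ± 0.07 higher (adjusted p = 2.31e-05) and Ppargc1a 0.63 ± 0.19 higher (adjusted p = 0.0300), and neither call held with scaling to hepatocyte markers (0.039, adjusted p = 0.667, and 0.21, adjusted p = 0.380). Tat was 0.28 ± 0.07 higher (adjusted p = 0.00841), but its sign turned to -0.15 (adjusted p = 0.0732) when the zones were scaled to hepatocyte markers. G6pc was at 542, 457 and 461 against 452, 424 and 407 CPM and did not pass the test (0.18 ± 0.13, adjusted p = 0.497), and with hepatocyte-marker scaling it was lower in the periportal spots (-0.25, adjusted p = 0.0188).

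Pdk4 ran the other way. At 0 h it was at 3.18, 1.87 and 2.18 CPM in the periportal and 7.51, 3.67 and 5.73 CPM in the portal-poor spots, lower in 3 of 3 sections (log2 fold change -1.20 ± 0.20, edgeR adjusted p = 9.96e-05). Angptl4 (0.07 ± 0.33), Fgf21 (0.10 ± 0.26) and Irs2 (-0.21 ± 0.10) did not pass the test at 0 h. The calls of Ppargc1a and Tat were lost without any one of the 0 h sections (adjusted p = 0.0571 to 0.262 and 0.0611 to 0.117), and that of Pck1 without section 3 (0.56, adjusted p = 0.0749), which left 2 calls.

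**Figure D3:**
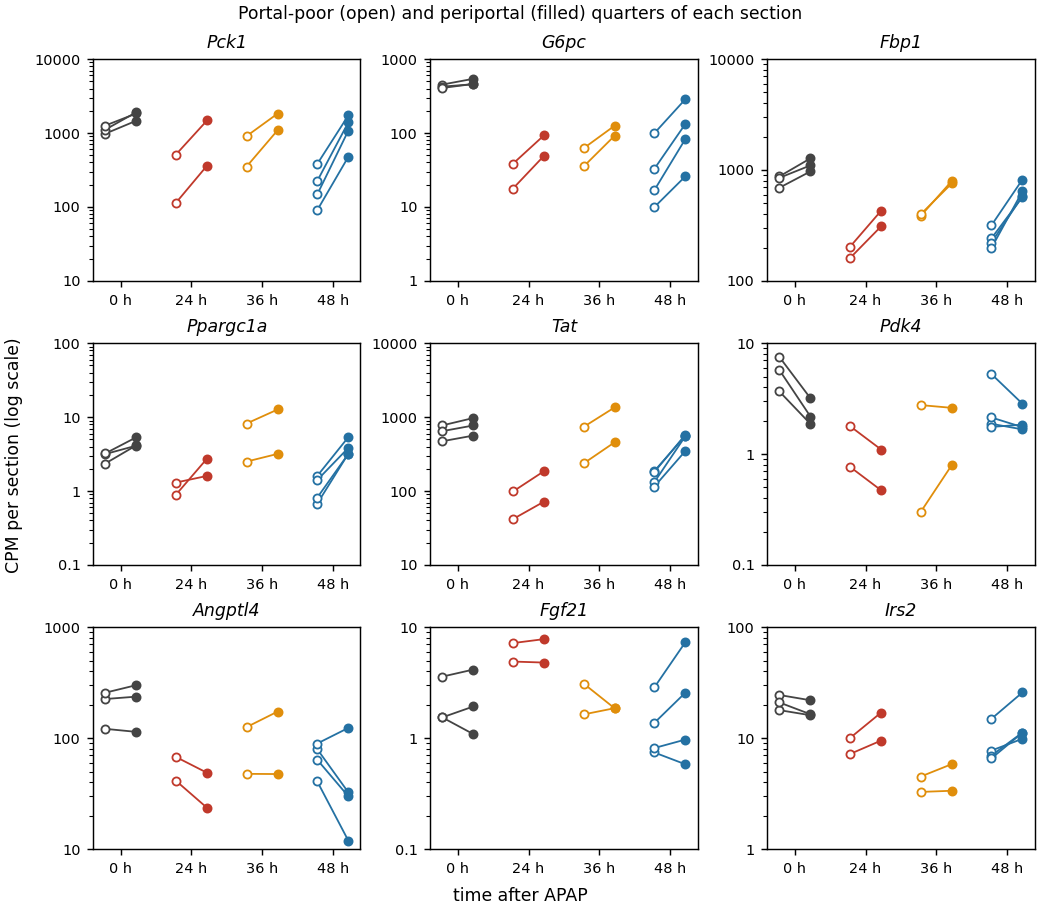
Level (CPM, log axis) in the portal-poor (open) and periportal (filled) spots of each section, with lines joining the values of a section. After APAP the lines of Pck1, G6pc, Fbp1 and Tat rose in 8 of 8 injured sections, and that of Pdk4 at 0 h fell in 3 of 3.

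After APAP the zone difference of Pck1, G6pc, Fbp1 and Tat steepened under TMM scaling. The portal-poor spots also differed in their cells. At 48 h all 7 mesenchymal and all 5 macrophage markers were lower in the periportal spots, with medians of -1.94 and -1.15. Of the spots low in hepatocyte markers, 99 of 109 in 48 h section A and 150 of 173 in section C were portal-poor, and none was periportal. The part of other cells in the zone differences was not tested. Pck1, G6pc, Fbp1, Tat and Irs2 were higher in the periportal spots at 24 h (5 of 9; 28.4% of all genes differed, 15.2% higher and 13.2% lower), and Pck1, G6pc, Fbp1 and Tat at 36 h (4 of 9; 29% of all genes differed, 15.1% higher and 13.9% lower). At 48 h all but Angptl4 differed (8 of 9; 66% of all genes differed, 30.4% higher and 35.5% lower), 7 of them higher and Pdk4 lower in the periportal spots. Without 48 h section D the calls of Pdk4 (-0.15, adjusted p = 0.559) and Fgf21 (0.52, adjusted p = 0.109) were lost, and with the portal minus central score those of Fgf21 (0.055, adjusted p = 0.860) and Irs2 (0.010, adjusted p = 0.948) were. The 24 h call of Irs2 was lost without 24 h section B (0.40, adjusted p = 0.244), with the portal minus central score and with total-count scaling. Pck1 had the largest value, at 1394, 476, 1076 and 1730 CPM in the periportal and 224, 90.4, 147 and 381 CPM in the portal-poor spots of the 48 h sections (log2 fold change 2.52 ± 0.12, edgeR adjusted p = 1.00e-08). The values of the 2 zones did not overlap. At 48 h G6pc was 1.82 ± 0.13, Ppargc1a 1.76 ± 0.18, Tat 1.73 ± 0.06 and Fbp1 1.43 ± 0.06 higher on the log2 scale, each in 4 of 4 sections.

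The change of the zone difference was tested directly, a positive change being a shift towards the periportal spots. Against 0 h it was positive at 24 h for Pck1 (0.96 ± 0.21 on the log2 scale, edgeR adjusted p = 0.0114), G6pc (1.17 ± 0.24, adjusted p = 0.00763), Fbp1, Tat and Irs2 (5 of 9; 17.4% of all genes changed, 10.3% up and 7.08% down). Without 24 h section B only Fbp1 was called, and without section A the calls of Pck1 and G6pc were lost (3 left). At 36 h it was positive for Pck1, G6pc, Fbp1, Tat and Pdk4 (5 of 9; 20.2% of all genes changed, 11.6% up and 8.63% down). For Pdk4, which was lower in the periportal spots at 0 h, the positive change means a smaller difference. It had 1.70 CPM in the periportal and 1.53 CPM in the portal-poor spots at 36 h against 2.41 and 5.64 CPM at 0 h. These 36 h means rest on 6 and 3 UMIs in section A and 21 and 27 UMIs in section B. The log2 ratios of the 36 h sections were 1.41 and -0.08. Pdk4 lost that call without either 36 h section or 0 h section 2 or 4, Pck1 lost it without any of 7 sections, and without 36 h section A 2 calls were left. At 48 h it was positive for all but Angptl4 (8 of 9; 45.7% of all genes changed, 24.1% up and 21.6% down), although Ppargc1a and Fgf21 turned to -0.17 and -0.27 when zones were set by the portal minus the central score. The zone difference of Pdk4 was again smaller than at 0 h, by a change of 0.75 ± 0.27. The change was 1.88 ± 0.18 for Pck1 (adjusted p = 7.26e-06), 1.63 ± 0.18 for G6pc and 1.45 ± 0.09 for Tat. Alb, which is not in the score either, steepened by 0.50 ± 0.10 at 48 h (adjusted p = 0.000205).

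Within each zone the members' time courses differed in depth. In the portal-poor spots the log2 ratio of the 48 h to the 0 h mean was -2.41 for Pck1, -3.43 for G6pc, -1.72 for Fbp1 and -2.04 for Tat. In the periportal spots the same ratios were -0.57, -1.88, -0.77 and -0.59. Angptl4 went the other way, with -2.13 in the periportal and -1.56 in the portal-poor spots at 48 h and -2.59 and -1.89 at 24 h. These ratios of means were not tested. Fgf21 was higher at 24 h by about the same ratio in the periportal (1.40) and the portal-poor spots (1.45).

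**Figure D4:**
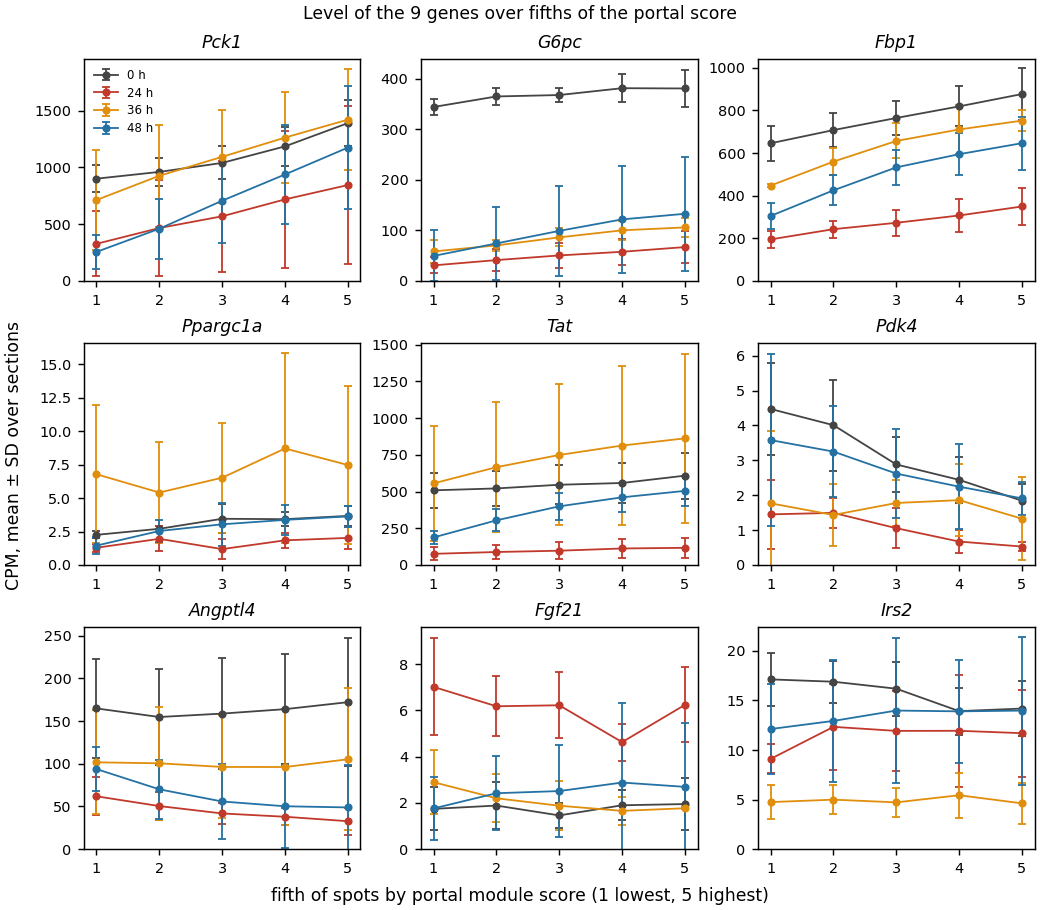
Level of each gene (CPM before TMM scaling, mean ± SD over sections) over 5 equal bins of the spots ordered by portal score; bars are cut at 0. Pck1 climbed from 255 to 1175 CPM over the bins at 48 h and from 901 to 1391 CPM at 0 h, and the 0 h line of G6pc stayed between 344 and 381 CPM.

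How the zones are scaled decides the sign of the smaller zone values. Scaled to hepatocyte markers, a choice made after the data were seen, the median of all genes lay at -0.43, -0.75, -0.68 and -1.06 at 0, 24, 36 and 48 h, and the members moved with it. Alb, among these markers, was itself higher in the periportal spots under TMM scaling. Pck1, G6pc and Fbp1 stayed higher in the periportal spots at 24, 36 and 48 h, and Tat did at 36 and 48 h; at 48 h the values were 1.51 for Pck1, 0.82 for G6pc, 0.72 for Tat and 0.41 for Fbp1. Irs2 turned from 0.67 to -0.33 at 48 h and from 0.59 to -0.18 at 24 h, and Fgf21 from 0.96 to -0.03 at 48 h and from 0.07 to -0.68 at 24 h. Pdk4 stayed lower in the periportal spots at 0 and 48 h (-1.62 and -1.40).

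**Figure D5:**
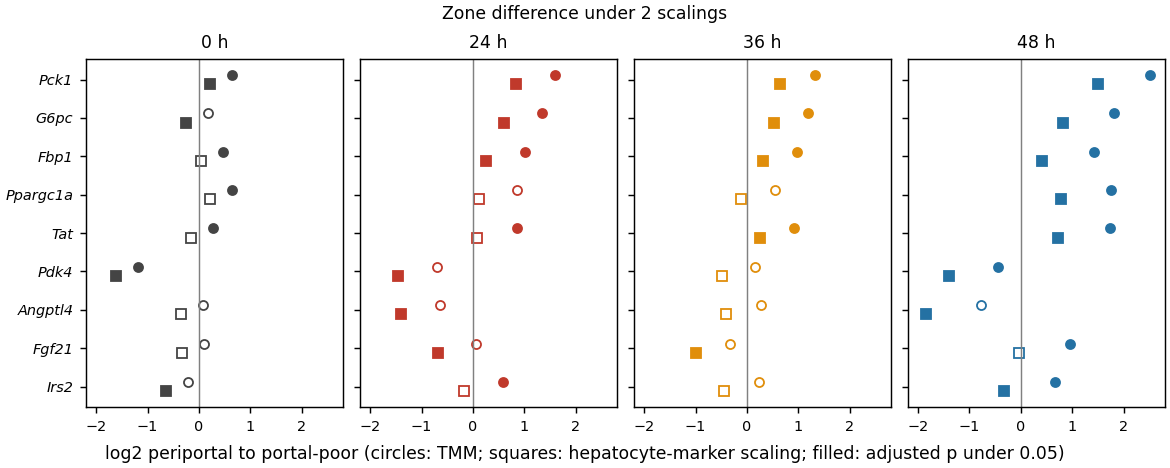
Log2 periportal to portal-poor difference of each gene at each time under TMM scaling (circles) and under scaling to 5 hepatocyte markers (squares); filled symbols have an adjusted p under 0.05. The squares lie to the left of the circles throughout, and a sign change is seen for Irs2 at 24, 36 and 48 h, Fgf21 at 0, 24 and 48 h, Tat and G6pc at 0 h, Angptl4 at 0 and 36 h, and Pdk4 and Ppargc1a at 36 h.

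The fatty acid oxidation and ketogenesis genes changed sides in the same contrast. At 0 h none of 20 was higher and 9 were lower in the periportal spots, and after APAP 11, 12 and 16 were higher and 3, 2 and 2 lower at 24, 36 and 48 h. Their median zone difference was -0.21 at 0 h and 0.29, 0.28 and 0.53 after APAP under TMM scaling, the later values being smaller than the shift of the all-gene median under hepatocyte-marker scaling, so their sign depends on the scaling. Of 20 gluconeogenic steps and transporters, 6 were higher and 1 lower at 0 h and 14 higher and 2 lower at 48 h. Of all genes, 10.7, 28.4, 29 and 66% differed at 0, 24, 36 and 48 h. By the direct test of the change from 0 h, 9 of the 20 shifted up and 4 down at 24 h, with a median of 0.007 (all genes 0.020). The counts were 8 up and 0 down at 36 h (median 0.18) and 11 up and 4 down at 48 h (median 0.46). Of 16 fed-state genes, 3 were higher and 2 lower at 0 h and 13 higher and none lower at 48 h.

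Beside the hepatocyte-poor spots of injured liver, 6 of the 9 genes were lower and Pdk4 was higher (7 of 9 differed; 40.4% of all 14233 genes tested did, 21.5% higher and 18.9% lower). Spots touching a hepatocyte-poor spot (ring) were compared with spots at least 3 steps away in the 8 injured sections. The class was read from hepatocyte transcripts and was not seen in histology. A section held 179 to 610 ring spots at 48 h and 24 to 108 before. The ring was also poorer in the periportal gene Hal (-1.09 ± 0.05) and richer in the pericentral gene Glul (0.35 ± 0.06), and the part of zone in its values was not tested. The ring was below the distant spots in 8 of 8 sections for Pck1 (log2 fold change -1.13 ± 0.12, edgeR adjusted p = 0.000124), G6pc (-1.02 ± 0.06), Fbp1 (-0.72 ± 0.05) and Tat (-0.74 ± 0.06), and in 7 of 8 for Ppargc1a (-0.91 ± 0.18), whose call was lost with hepatocyte-marker scaling (-0.38, adjusted p = 0.0629). Alb was also lower there (-0.56 ± 0.04). Irs2 was lower by 0.25 under TMM scaling (log2 fold change -0.25 ± 0.09, adjusted p = 0.0208) and higher with hepatocyte-marker scaling (0.28, adjusted p = 0.00409). Pdk4 was 0.42 ± 0.17 higher (adjusted p = 0.0459), in 4 of 8 sections, a call lost without 24 h section B or 48 h section C or D (adjusted p = 0.0818, 0.343 and 0.246), and Angptl4 and Fgf21 did not pass the test.

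The genes whose level followed the members most closely over the 11 sections were found among 7087 genes of at least 10 CPM by Pearson's r of log2(CPM + 1). They were Deptor and Ube2h for Fbp1 (r = 0.98 for both), Hpd, the next enzyme of tyrosine breakdown, and Slc7a2 for Tat (0.95 and 0.93), and H2-Q7 and G0s2 for G6pc (both 0.94). Pck1 was followed by Cd99l2 (0.91) and Heca (0.90), Ppargc1a by Rara (0.94) and Hnrnpl (0.93), and Pdk4 by Snx13 and Slc40a1 (both 0.95). For Angptl4 they were Mxd4 (0.94) and Hyal2 (0.93), for Fgf21 Rrn3 (0.95) and Wdr48 (0.93), and for Irs2 Pnrc1 and Cept1 (both 0.95). The points are sections that share their time, so r describes a common time course in these 11 libraries.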

How the data were processed

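The deposited files held, per the file headers, raw UMI counts per gene and spot for each section; the authors made them with Space Ranger 1.0.0 (build mm10), with Seurat 4.1.1 also named in the submitters' processing notes. Spots over tissue with at least 800 genes and at most 20% mitochondrial counts were kept and summed per section, zone or ring. Portal scores were read from spots thinned to 2000 UMIs. Counts were tested with edgeR 4.0.16 (quasi-likelihood, TMM, Benjamini-Hochberg adjusted p under 0.05) in R 4.3.3, all 11 sections in 1 fit, with DESeq2 1.42.0 as an alternative, and zone and ring fits compared spots within sections. Ring spots touched a spot below a fixed hepatocyte signal, the lowest 1% cut of 0 h spots averaged over the 0 h sections. That cut took 0.295 to 6.59% of a section's spots, the most at 48 h. Sections of a group differed beyond sampling noise (chi-square per gene 39.2 to 211). All sections use the same 4992 spot barcodes. Named genes outside the 9 were chosen, per list and comparison, from up to 3 higher and 3 lower called genes with the largest changes and a mean of at least 10 CPM, plus the genes that check the zones and the 2 genes most like each member. Alb was named after its values were seen. The members and lists were chosen with earlier results of these data known. Positions are from GENCODE vM21 and promoter windows from RefSeq (GRCm38.p6). Intervals are standard errors or SDs over sections, whose number limits the precision.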

Additional observations from a re-analysis of the deposited data

Results flagged for a closer look

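Section D of 48 h stood apart from the other 3 sections of that time for Fbp1 (552 CPM), Pdk4 (4.10 CPM) and Irs2 (19.8 CPM), by a gap above Dixon's 95% critical value for 4 samples. Of 18 measures tested (the 48 h level and zone ratio of each gene), 3 were flagged, all in section D. Chance flags about 1 group in 20.

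The difference between periportal and portal-poor spots changed from 0 h by a direct test. On the log2 scale the change at 24 h was 0.96 for Pck1, 0.80 for Irs2, 0.57 for Tat, 1.17 for G6pc and 0.55 for Fbp1. At 36 h it was 0.68 for Pck1, 1.36 for Pdk4, 0.63 for Tat, 1.01 for G6pc and 0.52 for Fbp1. At 48 h it was 1.88 for Pck1, 1.13 for Ppargc1a, 0.75 for Pdk4, 0.86 for Fgf21, 0.88 for Irs2, 1.45 for Tat, 1.63 for G6pc and 0.96 for Fbp1. For Pdk4, lower in the periportal spots at 0 h, these changes made the difference smaller.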

How the results depend on the processing

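Of 2142 values of single genes under the alternatives, 1929 counted as the same and 9 reversed. Values counted as the same kept their side of the threshold, and called ones kept their direction. An uncalled value that changed sign was included if it moved by less than its main standard error. With hepatocyte-marker scaling, a choice added for zones and ring after seeing the data, the periportal difference became -0.15 for Tat and -0.25 for G6pc at 0 h, -0.68 for Fgf21 and -0.18 for Irs2 at 24 h, and -0.030 for Fgf21 and -0.33 for Irs2 at 48 h, and the ring difference of Irs2 became 0.28. With zones set by the portal minus the central score, the change of the zone difference from 0 to 48 h became -0.17 for Ppargc1a and -0.27 for Fgf21. The number of the 9 genes called was 8 at 24 h against 0 h in a fit of those groups alone, and 1 and 2 at 36 and 48 h against 0 h with hepatocyte-marker scaling. DESeq2 called 2 between 36 and 48 h and 4 between 24 and 48 h. The changes of the zone difference at 24, 36 and 48 h kept 2, 3 and 5 calls with hepatocyte-marker scaling (1 of the 5 gained), 1 at 36 h and 5 at 48 h with the portal minus central score, and 2 at 36 h with total-count scaling. The cause was not tested.

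Leaving out 1 section gave 3 to 7 calls at 24 h, 1 to 3 at 36 h and 2 to 6 at 48 h against 0 h, 1 to 4 from 24 to 36 h, 0 to 1 from 36 to 48 h and 1 to 3 from 24 to 48 h. The zone differences gave 2 to 5, 4 to 6, 4 to 5 and 7 to 8 calls at 0, 24, 36 and 48 h, their changes 1 to 6, 2 to 5 and 6 to 8, and the ring 6 to 7.

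With the section letter as a replicate block, 0 of the 9 genes were called from 24 to 36 h, as in a fit of those groups alone (82 and 1 of all genes), and 2 from 24 to 48 h, where Fbp1 was lost (0.55, adjusted p = 0.126) and Fgf21 gained (-2.27, adjusted p = 0.0242). Deviations of same-letter sections correlated at 0.46 between 24 and 36 h and at -0.17 between 24 and 48 h, so the letters were not shown to pair sections. Few UMIs limit Pdk4, Fgf21 and Ppargc1a, and 2 sections a group limit 24 and 36 h.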
